A study of Homo sapiens with 10 samples.

Results

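Mitochondrial ribosomal protein genes were followed across 4 human blood cancer cell lines and 6 mixtures of them. The members are all genes of the deposited expression table whose symbol is MRPL or MRPS followed by a number and at most 1 letter, so that pseudogenes stay out. The rule gave 75 of 20591 genes, 47 named MRPL for the large subunit and 28 named MRPS for the small subunit. The study pooled known cell lines to test deconvolution, the estimation of cell shares from a bulk measurement. Bulk RNA sequencing was made from 4 pure lines: HL60 (promyelocytic acute leukaemia), K562 (erythroid, from the blast crisis of a chronic myeloid leukaemia), SUDHL4 (a diffuse large B cell lymphoma of germinal-centre type) and THP1 (monocytic acute leukaemia). Another 6 libraries came from mixtures of all 4 lines, in ratios that the labels do not give.

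All 10 groups were of wild-type genotype, untreated and taken at day 0, from cells kept in RPMI medium with 10% serum. Each group holds 1 library, so no value below has a replicate check and no p-value is given. The labels name a pair of library kits, 1 for total RNA of low amount and 1 for mRNA, both keeping strand, without saying which library was made with which. In a bulk sample, fewer cells of a type and less RNA per cell cannot be told apart. The libraries held 24985570 to 36607612 reads in genes, of which 134017 to 216452 fell in the members. All 12 marker genes chosen for the lines, such as MPO for HL60, HBE1 for K562, MS4A1 for SUDHL4 and CSF1R for THP1, had their highest level in the line they mark.

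Mitochondria carry their own ribosome, which makes the few proteins encoded by mitochondrial DNA, all of them core parts of the respiratory chain and of ATP synthase. The RNA of this ribosome comes from mitochondrial DNA, whereas every one of its proteins is encoded in the nucleus, made in the cytosol and imported. Many of these proteins have bacterial counterparts, and others occur only in mitochondria. Binding of NRF1, of ETS family factors such as GABPA, and of YY1 near the start site is a known feature of many nuclear genes for mitochondrial proteins. A few symbols mislead about place: MRPS30 and MRPS18A sit in the large subunit, and MRPS36 is now regarded as a component of the 2-oxoglutarate dehydrogenase complex. The split into subunits used here follows the symbols.

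Of 3 motifs searched, that of the ETS factors, the shortest, was found in the most promoters, both of members and of all genes. Beside the promoters of tested genes, the YY1 motif had the largest relative excess in the members, and the NRF1 motif had none. RefSeq start sites (GRCh38.p14) were found for 66 of the 75 members, and the window from 250 bases before to 50 bases after the start was searched on both strands for CCGGAAG (ETS), AAGATGGCG (YY1) and the NRF1 motif (GCGCA, any base, then GCGC). The ETS motif ends and the YY1 motif begins with AAG, so that matches can share bases, as they did in 0 of the 66 members and in 4 of all promoters. CCGGAAG stood in 27 of 66 members, 40.9%, against 10.7% of all 27305 promoters and 20.5% of the 9048 promoters of genes tested here. AAGATGGCG stood in 13 members, 19.7%, against 1.85% of all promoters and 4.23% of those of tested genes. The NRF1 motif stood in 6 members, 9.09%, against 6.28% and 12.4%. At least 1 of the 3 motifs was found in 40 members, 60.6%, against 17.0% of all promoters and 32.9% of those of tested genes. A match is a description of letters and does not show that a factor binds.

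Below are stretches just upstream of the start, written 5′ to 3′ on the strand of the gene, with each ETS or NRF1 match in capitals (CTTCCGG is CCGGAAG read on the other strand). MRPS34, one of the members highest in HL60, has an ETS match at each of 2 places, at chr16:1773156-1773254 (reverse strand). MRPS31, a member highest in SUDHL4, has 1 at chr13:40771191-40771310 (reverse strand). MRPS18A, which varied little between the lines, has 1 at chr6:43687792-43687911 (reverse strand). MRPL57, low in K562, shows the NRF1 motif at chr13:21176538-21176644 (forward strand). MRPL12 at chr17:81703247-81703356 (forward strand) and MRPL37 at chr1:54200047-54200166 (forward strand) are shown because the results turn on them and their windows hold none of the 3 motifs.
MRPS34: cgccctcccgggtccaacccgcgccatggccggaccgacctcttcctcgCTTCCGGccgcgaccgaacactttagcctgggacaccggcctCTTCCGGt
MRPS31: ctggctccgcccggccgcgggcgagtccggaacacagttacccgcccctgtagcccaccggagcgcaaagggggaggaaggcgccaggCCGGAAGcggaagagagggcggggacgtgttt
MRPS18A: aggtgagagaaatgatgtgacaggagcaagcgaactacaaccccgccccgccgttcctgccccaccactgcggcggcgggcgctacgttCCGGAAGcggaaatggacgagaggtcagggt
MRPL57: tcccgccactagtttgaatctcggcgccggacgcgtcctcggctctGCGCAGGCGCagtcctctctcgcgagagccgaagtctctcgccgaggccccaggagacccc
MRPL12: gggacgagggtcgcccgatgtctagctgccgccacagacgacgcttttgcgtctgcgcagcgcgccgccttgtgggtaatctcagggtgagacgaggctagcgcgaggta
MRPL37: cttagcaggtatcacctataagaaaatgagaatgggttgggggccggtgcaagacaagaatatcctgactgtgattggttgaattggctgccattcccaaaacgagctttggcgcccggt

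Levels are given as normalised CPM, the authors' deposited values on the scale of counts per 1000000 reads, whose columns sum to between 909942 and 1108150 after a rescaling by the authors. A level of 5 in at least 1 pure line was required for a gene to be tested, which 72 of the 75 members (45 MRPL, 27 MRPS) and 11717 genes in all reached. For each tested gene the log2(level + 1) of a line was compared with the mean of the other 3 lines. A gene was called higher or lower at a difference of 1.5-fold, 0.585 on that log2 scale. This scale understates the change of low genes.

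As a group, the members were lowest in THP1, while HL60 or K562 came first depending on the scaling. The summed level of all 75 was 6922 normalised CPM in HL60, 6113 in K562, 5423 in SUDHL4 and 4096 in THP1. As a share of all reads, without the authors' rescaling, the members took 0.625% in HL60 (Wilson 95% interval 0.622 to 0.627), 0.626% in K562 (0.623 to 0.629), 0.543% in SUDHL4 (0.541 to 0.546) and 0.415% in THP1 (0.413 to 0.417). On this measure HL60 and K562 overlapped within counting error, and THP1 was again the lowest. These intervals hold counting error alone, as amplified reads are not independent molecules.

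Gene by gene, 33 of the 72 tested members had their highest level in HL60, 24 in K562, 12 in SUDHL4 and 3 in THP1. Among all genes tested, 24.8%, 30.2%, 24.3% and 20.7% had their highest level in these lines. The order of HL60 and K562 turned under both other scalings: 28 members were highest in HL60 and 29 in K562 with libraries scaled on total reads, and 22 and 25 with libraries scaled on 20 housekeeping genes. THP1 was the lowest line for 46 members, SUDHL4 for 15, K562 for 8 and HL60 for 3. The background for the lowest line was 29.8% in THP1, 26% in SUDHL4, 23.1% in K562 and 21% in HL60. THP1 was lowest for 23 of the 27 MRPS members and for 23 of the 45 MRPL members.

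In THP1, 37 of 72 members were called lower and 1 higher, against 31.9% of all genes called lower and 26.3% called higher. The median difference was -0.61 over the members and -0.16 over all genes tested. In HL60, 30 members were called higher and 3 lower, against 26.1% and 26.8% of all genes, with a median of 0.47 beside 0.08. Both counts depended on the scaling. With the scaling on 20 housekeeping genes, which by themselves had a median of 0.38 in HL60 and -0.28 in THP1, HL60 had 11 members higher and 6 lower and THP1 had 5 higher and 24 lower. The members' median was then 0.095 in HL60 and -0.32 in THP1, and that of all genes was -0.28 and 0.12.

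K562 had 16 members called higher and 7 lower, against 30.5% and 28% of all genes, and 20 higher and 5 lower when scaled on total reads. Its median was 0.28 over the members and 0.07 over all genes. With total-read scaling the members' median was 0.36 in K562 and 0.30 in HL60, and with housekeeping scaling 0.27 and 0.095. K562 then came first. The members' median less that of all genes changed little, and by it HL60 stayed above K562. Under the deposited, total-read and housekeeping scalings it was 0.38, 0.38 and 0.37 in HL60. In K562 it was 0.22 under each. SUDHL4 had 6 members called higher and 13 lower, against 24% and 33.1% of all genes. With total-read scaling these were 9 and 12, and with housekeeping scaling 10 and 10. The SUDHL4 median, -0.05, sat close to that of all genes, -0.10, and turned to 0.04 with housekeeping scaling. The heat map of differences shows THP1 as the line with the most members below 0.

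**Figure D1:**
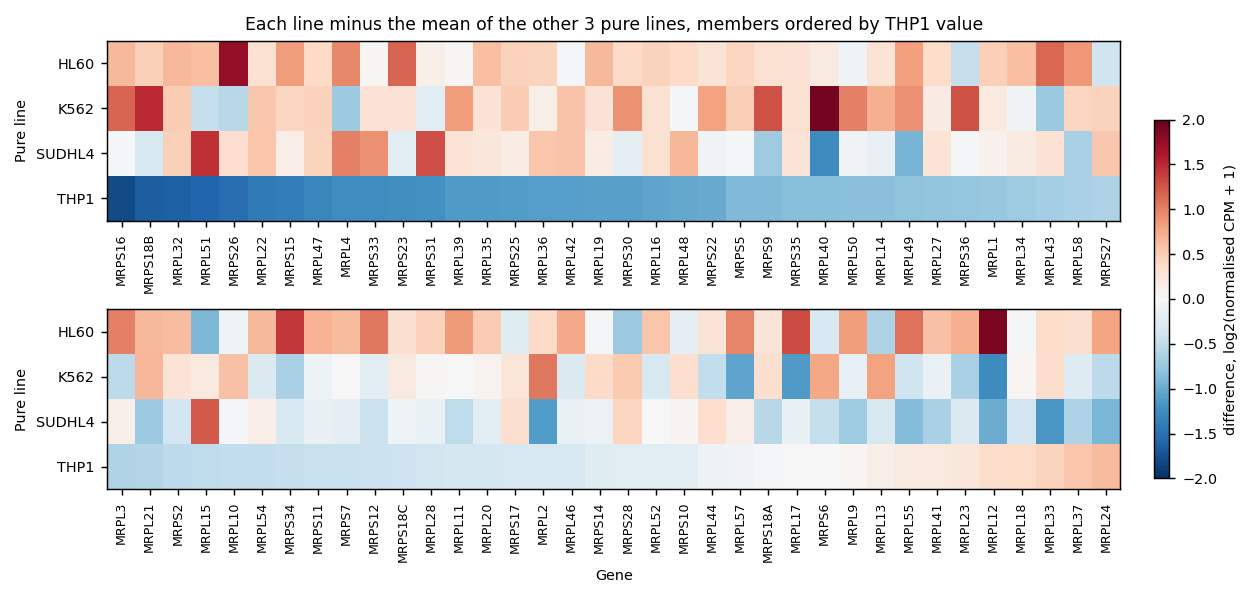
Difference of log2(normalised CPM + 1) between each pure line and the mean of the other 3, for the 72 tested members in order of their THP1 value, with colour from -2 (blue) to 2 (red). Blue fills most of the THP1 row, where 37 members are lower by 1.5-fold, and red most of the HL60 row, where 30 are higher.

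The large and small subunit genes did not keep a constant ratio. The summed level of the MRPL genes was 1.53 times that of the MRPS genes in K562, 1.83 times in SUDHL4, 1.90 times in HL60 and 2.28 times in THP1. The 6 mixtures lay between 1.77 in mixture 6 and 1.99 in mixture 4, inside the range of the pure lines. The sums run over 47 MRPL and 28 MRPS genes, so a ratio above 1 does not show a higher level per gene. With medians of the members' levels in place of sums, the ratio was 0.821 in K562, 0.852 in SUDHL4, 0.888 in HL60 and 1.23 in THP1. K562 was thus again lowest and THP1 highest. The median difference over the MRPS members was 0.34 in K562 and -0.77 in THP1, and over the MRPL members 0.07 and -0.58.

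In level per kilobase of transcript (median length of the gene's protein-coding transcripts in GENCODE 29), averaged over the pure lines, the highest members were MRPL51 at 303, MRPL3 at 295, MRPL37 at 283, MRPL49 at 172 and MRPS23 at 153. MRPL3 has a bacterial counterpart near the peptidyl transferase centre, while MRPL37, MRPL49, MRPL51 and MRPS23 are proteins particular to mitochondria. At the other end stood MRPL46 at 4.90, MRPS17 at 4.31, MRPL53 at 0.423, MRPS24 at 0.207 and MRPL38 at 0.0778 per kilobase. The 3 last are the members that never reached a level of 5.

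MRPL38, MRPL53 and MRPS24 encode parts of the same ribosome as the others, yet were near the counting floor. MRPL38 had a normalised CPM of 0.318 in HL60, 0.0706 in K562, 0.0918 in SUDHL4 and 0.107 in THP1, from 2 to 9 reads. MRPL53 had 0.352 in HL60, 0.381 in K562, 0.165 in SUDHL4 and 0.413 in THP1, and MRPS24 had 0.0503 in HL60, 0.155 in K562, 0.165 in SUDHL4 and 0.229 in THP1. No fold is given for them. All 3 share exon bases with another gene on the same strand in GENCODE 29 (GRCh38): 45.2% of the exon bases of MRPL53 with CCDC142, 37.5% of MRPL38 with AC087289.3 and 23.2% of MRPS24 with the read-through gene URGCP-MRPS24.

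In all, 7 members share at least 20% of their exon bases with another gene of the same strand, the other 4 being MRPL12 (68.2%), MRPS28 (35.8%), MRPS17 (27.003%) and MRPL33 (21.1%). Their median level was 4.31 per kilobase, against 69.3 for the other 68 members, and 3 of the 7 never reached the minimum against 0 of 68. How reads in more than 1 gene were counted is not stated in those sources that were used here. Its part in these levels was not tested. The values of these 7 are therefore uncertain. Overlaps on the opposite strand were left out of this count. With both strands taken, other members share exon bases too, such as 47.0% in MRPS18A, 40.2% in MRPS18C and 31.3% in MRPL51. If strand was ignored in counting, their values would be uncertain as well.

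The members' spread between the lines was below that of all genes tested. The range, the highest over the lowest line as a fold on the log2(level + 1) scale, reached 2-fold in 47 of 72 members (65.3%) and in 76.9% of all genes tested. Its median was 2.31-fold over the members and 3.22-fold over all genes. Several gene lists described further below reached 2-fold less often than the members. These were cytosolic ribosomal proteins (34.9%), housekeeping genes (45%), regulators of mitochondrial gene expression (53.8%), respiratory chain subunits (56.6%) and assembly factors (60%). Translation factors (64.7%) and ribosome genes under other symbols (66.7%) were near the members, and tRNA synthetases (73.7%) above them. The smallest ranges were those of MRPS10 at 1.33-fold, MRPS14 at 1.38-fold, MRPS17 at 1.40-fold, MRPS18C at 1.47-fold and MRPL18 at 1.47-fold. MRPS10, MRPS14, MRPS17 and MRPL18 all have bacterial counterparts. MRPS10 had a normalised CPM of 109.9 in HL60, 144 in K562, 124 in SUDHL4 and 108 in THP1, and MRPL18, with 125 in HL60, 130.4 in K562, 105 in SUDHL4 and 154 in THP1, was one of the 3 members highest in THP1.

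The largest ranges were those of MRPS26 at 5.51-fold, MRPL40 at 5.21-fold, MRPL12 at 5.10-fold, MRPS18B at 5.09-fold and MRPL51 at 4.85-fold. Among these 5, HL60 was the highest line for 2, K562 for 2 and SUDHL4 for 1. They are described under the line in which they stood out.

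In HL60 the largest differences were those of MRPL12, MRPS26 and MRPS34. MRPL12, the stalk protein that also binds the mitochondrial RNA polymerase, had a normalised CPM of 18.6 in HL60, 2.84 in K562, 3.40 in SUDHL4 and 7.87 in THP1, with 95% Poisson intervals of 17.1 to 20.2 in HL60 and 6.92 to 8.87 in THP1. It passed the minimum in HL60 and THP1 alone, its difference in HL60 was 1.88, and it is one of the 7 overlapping members. MRPS26, a small subunit protein of mitochondria, had 42.8 in HL60, 12.1 in K562, 19.8 in SUDHL4 and 6.95 in THP1, a difference of 1.76 in HL60 and -1.53 in THP1.

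MRPS34, a small subunit protein whose promoter stretch with 2 ETS matches is shown above, had a normalised CPM of 199 in HL60, 66.9 in K562, 80.1 in SUDHL4 and 74.3 in THP1. The difference in HL60 was 1.42, while the other 3 lines lay close together. Also in HL60, MRPL17, whose bacterial counterpart lies near the exit of the peptide tunnel, had 109.9 in HL60, 30.2 in K562, 50.99 in SUDHL4 and 55.2 in THP1, a difference of 1.30.

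The 3 members called lower in HL60 were MRPL15, MRPS28 and MRPL13, and all 3 lie on chromosome 8, which holds no other tested member. MRPL15, the counterpart of a bacterial large subunit protein, had a normalised CPM of 59.4 in HL60, 106 in K562, 182 in SUDHL4 and 73.2 in THP1 and a difference of -0.91 in HL60. MRPS28, a small subunit protein and an overlapping member, had 9.97 in HL60, 19.98 in K562, 18.9 in SUDHL4 and 13.2 in THP1 and a difference of -0.72 in HL60. MRPL13, also the counterpart of a bacterial large subunit protein, had 56.97 in HL60, 120.4 in K562, 66.7 in SUDHL4 and 83.98 in THP1 and a difference of -0.61 in HL60.

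Other genes of chromosome 8 were low in HL60 too: the 409 other tested genes there had a median difference of -1.02, against 0.08 over all genes. The chromosome of a gene was taken from GENCODE 29. The part of that chromosome-wide value in the 3 members' differences was not tested.

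In K562 the largest differences were those of MRPL40, MRPS18B and MRPS9. MRPL40, encoded in the DiGeorge deletion region of chromosome 22, had a normalised CPM of 62.5 in HL60, 156 in K562, 29.1 in SUDHL4 and 36.3 in THP1, with intervals of 152 to 160.2 in K562 and 27.1 to 31.2 in SUDHL4. Its difference was 1.92 in K562 and -1.25 in SUDHL4, the largest positive and the largest negative value in those lines. The 20 tested genes nearest to it, 10 on each side, had a median of 1.28 in K562, whereas the 286 other tested genes of chromosome 22 had -0.40.

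MRPS18B, a small subunit protein, had a normalised CPM of 93.9 in HL60, 159.6 in K562, 61.5 in SUDHL4 and 30.5 in THP1 and a difference of 1.49 in K562 and -1.64 in THP1. MRPS9, the counterpart of a bacterial small subunit protein, had 48.7 in HL60, 81.2 in K562, 28.3 in SUDHL4 and 25.7 in THP1 and a difference of 1.28 in K562. For both, K562 was the highest line and THP1 the lowest.

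The lowest in K562 were MRPL12 (-1.25), MRPL17 (-1.14) and MRPL57 (-1.05). MRPL57, a short protein of the mitochondrial large subunit, had a normalised CPM of 46.2 in HL60, 15.5 in K562, 29.6 in SUDHL4 and 26.5 in THP1. HL60 was the highest line for all 3.

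In SUDHL4, MRPL51 stood out among the large subunit genes and MRPS31 among those of the small subunit. MRPL51 had a normalised CPM of 176 in HL60, 99.9 in K562, 275 in SUDHL4 and 55.9 in THP1 and a difference of 1.46 in SUDHL4 and -1.58 in THP1. MRPS31 had 40.2 in HL60, 33.8 in K562, 74.7 in SUDHL4 and 19.6 in THP1 and a difference of 1.29 in SUDHL4. MRPL15, low in HL60, was also among the highest in SUDHL4 (1.23).

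The lowest in SUDHL4 were MRPL40, MRPL33 and MRPL2. MRPL33, the counterpart of a small bacterial large subunit protein and an overlapping member, had a normalised CPM of 45.9 in HL60, 45.4 in K562, 20.2 in SUDHL4 and 47.96 in THP1 and a difference of -1.16 in SUDHL4. MRPL2, whose bacterial counterpart lies near the peptidyl transferase centre, had 82.9 in HL60, 119 in K562, 37.7 in SUDHL4 and 57.4 in THP1 and a difference of -1.11 in SUDHL4. For both, SUDHL4 was below each of the other lines.

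In THP1 the lowest members were MRPS16, MRPS18B and MRPL32. MRPS16, a small subunit protein with a bacterial counterpart in which mutations cause respiratory chain deficiency, had a normalised CPM of 149 in HL60, 195 in K562, 105 in SUDHL4 and 41.4 in THP1, with intervals of 39.3 to 43.7 in THP1 and 101 to 109 in SUDHL4, and a difference of -1.78 in THP1. MRPL32, which is matured by the mitochondrial m-AAA protease, had 68.8 in HL60, 63.6 in K562, 62.7 in SUDHL4 and 20.2 in THP1, a difference of -1.64. The other 3 lines lay close together for MRPL32 and apart for MRPS16.

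MRPS16 lies on chromosome 10, whose 432 other tested genes had a median of -1.05 in THP1. The 20 neighbours of MRPS16 had a median of -1.18 there, and those of MRPS18B on chromosome 6 had -1.25. For MRPL32 on chromosome 7 the neighbours had -0.18, near the median of all genes.

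A few members went the other way in THP1. MRPL24, whose bacterial counterpart lies at the exit of the peptide tunnel, had a normalised CPM of 122 in HL60, 61.1 in K562, 49.6 in SUDHL4 and 113 in THP1 and was the 1 member called higher in THP1, at 0.64, although its level was higher still in HL60. MRPL37 had 432 in HL60, 321 in K562, 266 in SUDHL4 and 488 in THP1 and a difference of 0.55 in THP1. MRPL33 followed at 0.45, so that THP1 was its highest line by a small margin.

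**Figure D2:**
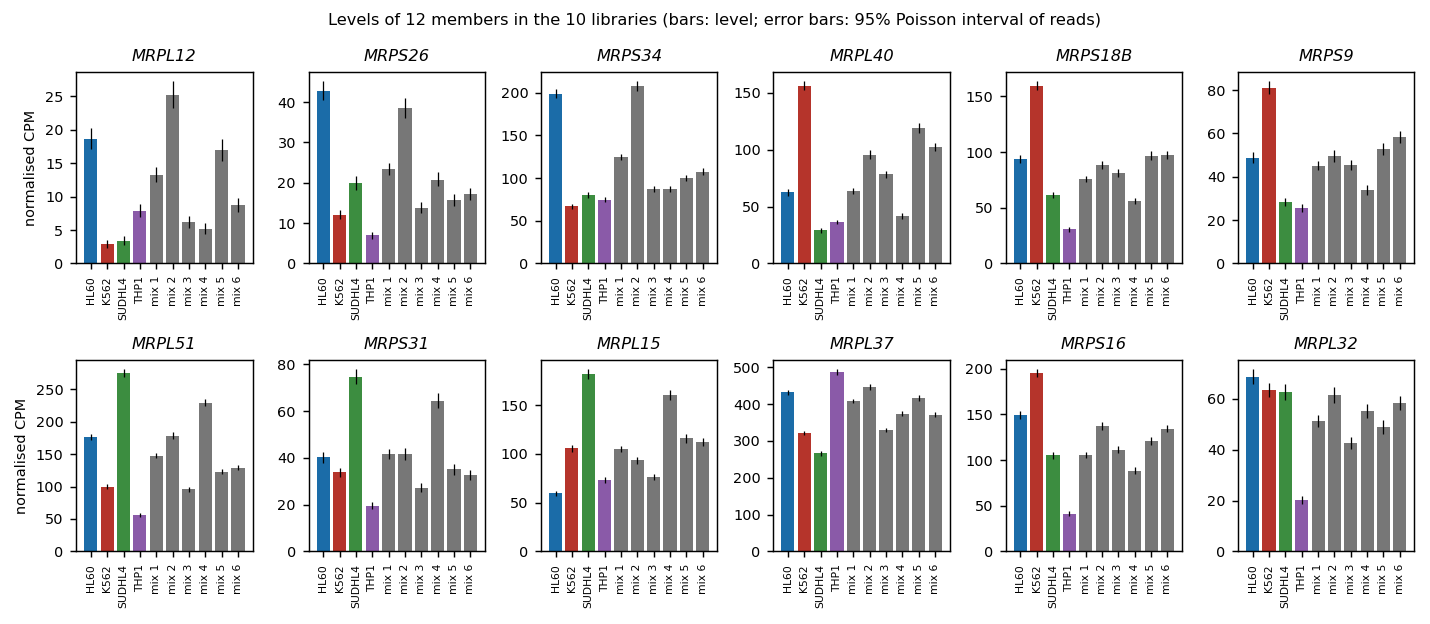
Levels of 12 members in normalised CPM in the 4 pure lines (coloured bars) and the 6 mixtures (grey bars), with 95% Poisson intervals of the reads as error bars. HL60 is the highest pure line for MRPL12, MRPS26 and MRPS34, K562 for MRPL40, MRPS18B, MRPS9 and MRPS16, SUDHL4 for MRPL51, MRPS31 and MRPL15, and THP1 is the lowest for MRPS18B, MRPS16 and MRPL32.

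The paralogues MRPS18A, MRPS18B and MRPS18C, which share a bacterial ancestor and sit at different places of the ribosome, did not keep the same proportions across the lines. MRPS18A had a normalised CPM of 91.5 in HL60, 95.002 in K562, 59.9 in SUDHL4 and 78.5 in THP1, MRPS18B the values above, and MRPS18C 62.6 in HL60, 57.8 in K562, 50.2 in SUDHL4 and 42.4 in THP1. Per kilobase, MRPS18B made up 33.7% of the sum of the 3 in K562, 22.8% in HL60, 21.1% in SUDHL4 and 10.99% in THP1. In THP1 MRPS18A held 53.9%, the largest share of any paralogue in any library. Over the 6 mixtures the share of MRPS18B ran from 16.9% in mixture 4 to 24.5% in mixture 3. Ratios of this kind do not depend on how the libraries were scaled.

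Across the 72 tested members, a member's difference went with that of the genes around it. The median difference of up to 20 neighbours (10 tested genes on each side that are not members, by GENCODE 29 order) was set against the member's own. Pearson's r across genes was 0.74 in HL60, 0.53 in K562, 0.64 in SUDHL4 and 0.64 in THP1, and Spearman's rho was 0.57, 0.54, 0.67 and 0.69. For 11493 tested genes and their neighbours r was 0.23, 0.21, 0.21 and 0.26. Genes are not independent replicates, neighbouring members share neighbours, and the difference between the members and all genes was not tested.

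The sign of the member and its neighbours matched in 60 of 72 cases in HL60, 54 in K562, 58 in SUDHL4 and 50 in THP1. The share of such matches over all genes is not given here. By themselves 59 members were above 0 in HL60, 47 in K562, 31 in SUDHL4 and 11 in THP1. Their neighbours' values had medians of 0.11, 0.005, -0.10 and -0.14. Some matches would therefore occur without any tie between a member and its neighbours. MRPL12 (1.88 in HL60) had neighbours at 0.80, MRPS26 (1.76) at 0.98 and MRPS34 (1.42) at 0.83. MRPL51 (1.46 in SUDHL4) had neighbours at 0.90 and MRPS31 (1.29) at 0.81. In each of these the neighbours leaned the same way, by less than the member. MRPL24 was an exception, at 0.80 in HL60 beside neighbours at -0.61.

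**Figure D3:**
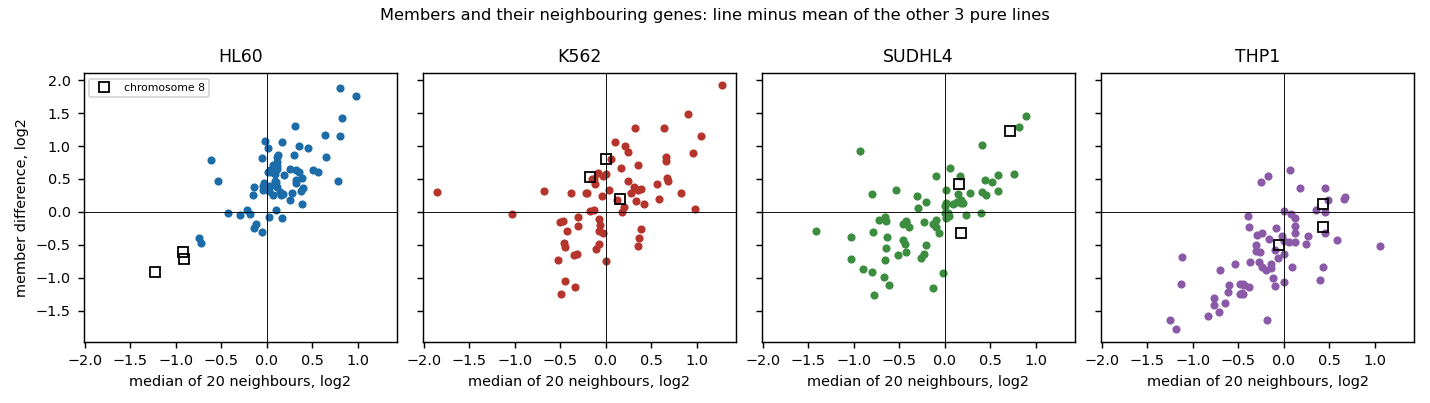
Difference of each of the 72 tested members (vertical axis) against the median difference of its up to 20 neighbouring genes (horizontal axis), both as log2(normalised CPM + 1) of a line minus the mean of the other 3, with a panel for each line. In HL60 the 3 members of chromosome 8 (open squares) sit at the lower left, with neighbours from -1.23 to -0.91, and Pearson's r runs from 0.53 in K562 to 0.74 in HL60.

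The members' differences also went with base composition. The transcript GC content of the tested members ran from 34.96% to 71.9%, the highest being MRPL41. Spearman's rho of the difference with GC content over the 72 members was 0.55 in HL60, -0.42 in K562, -0.39 in SUDHL4 and 0.27 in THP1. Over 11561 genes with a GC value it was 0.08, -0.17, -0.14 and 0.22. Members richer in GC leaned higher in HL60, and members poorer in GC leaned higher in K562 and SUDHL4. With the median of all genes of the same GC content subtracted, a correction chosen after seeing the data, HL60 had 19 members higher and THP1 had a median of -0.44. The HL60 median was then 0.35. The comparable values without the correction, the members' median less that of all genes, were 0.38 in HL60 and -0.45 in THP1. No count with the all-gene median alone subtracted is given, so how far GC content moved the count of 19 cannot be told.

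Members with and without a promoter motif were also set side by side. In THP1 the median difference was -0.68 over the 25 tested members with CCGGAAG and -0.66 over the 38 without. In HL60 it was 0.47 and 0.48. The 11 tested members with AAGATGGCG had medians of -1.09 in THP1 and 0.50 in K562, against -0.63 and 0.12 over the 52 without. The number of members with the NRF1 motif, 6, was too small to describe.

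The proteins that act with the ribosome were given from lists beside the members. Of 6 further genes tied to this ribosome under other symbols, DAP3, PTCD3, CHCHD1 and AURKAIP1 of the small subunit, GADD45GIP1 of the large subunit and the insertase OXA1L that docks to it, 2 were called higher in HL60 and 2 lower in THP1, or 33.3% in each case, near the 26.1% and 31.9% of all genes. GADD45GIP1 had a normalised CPM of 155 in HL60, 56.97 in K562, 56.4 in SUDHL4 and 58.4 in THP1 and a difference of 1.42 in HL60. CHCHD1 had 39.8 in HL60, 47.4 in K562, 33.1 in SUDHL4 and 13.7 in THP1 and a difference of -1.47 in THP1, and PTCD3, with 72.5 in HL60, 101 in K562, 97.1 in SUDHL4 and 33.2 in THP1, had -1.40. In these 3 the level was higher in HL60 than in THP1.

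Of 25 tested assembly factors of the mitochondrial ribosome, 11 (44.0%) were called lower and 0 higher in THP1, with a median of -0.56. All genes tested had 31.9% called lower and 26.3% higher there, which is the background for each list below. C1QBP, a matrix protein that binds RNA, had a normalised CPM of 391 in HL60, 456 in K562, 542 in SUDHL4 and 131 in THP1 and a difference of -1.80 in THP1. GTPBP10, a GTPase of large subunit assembly, had 45.6 in HL60, 49.3 in K562, 48.2 in SUDHL4 and 12.9 in THP1 and a difference of -1.81 in THP1. RBFA, which acts on the small subunit, was called higher in HL60 at 1.49, with 32.1 in HL60, 9.16 in K562, 12.8 in SUDHL4 and 10.6 in THP1.

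Of 17 translation factors, 11 (64.7%) were called lower and 0 higher in THP1, with a median of -0.68, and 7 (41.2%) were called higher in HL60, against 26.1% of all genes, with a median of 0.47. MTIF2, the mitochondrial initiation factor that brings the first tRNA, had a normalised CPM of 147 in HL60, 193 in K562, 65.2 in SUDHL4 and 48.05 in THP1 and a difference of -1.34 in THP1. Among 19 mitochondrial tRNA synthetases and related enzymes, 10 (52.6%) were lower and 2 (10.5%) higher in THP1, with a median of -0.59. VARS2, which charges the valine tRNA, had 54.3 in HL60, 45.8 in K562, 38.4 in SUDHL4 and 4.54 in THP1 and a difference of -3.08 in THP1.

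The median in THP1 was -0.60 over 13 regulators of mitochondrial gene expression, of which 7 (53.8%) were called lower and 0 higher, beside 31.9% and 26.3% of all genes. TFAM, which packs mitochondrial DNA and starts its transcription, had a normalised CPM of 117 in HL60, 239.8 in K562, 131 in SUDHL4 and 26.1 in THP1 and a difference of -2.52 in THP1 and 1.69 in K562. GABPA, the ETS factor named above, had 32.2 in HL60, 56.3 in K562, 56.6 in SUDHL4 and 21.7 in THP1 and a difference of -1.08 in THP1. MYC, a transcription factor of growth, had 1292 in HL60, 194 in K562, 189 in SUDHL4 and 187 in THP1, and its difference in HL60 was 2.76. MYC lies on chromosome 8, where the median of the other genes in HL60 was low.

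Respiratory chain subunits and cytosolic ribosomal proteins had THP1 medians nearer to 0 or above it. Of 76 nuclear genes for respiratory chain and ATP synthase subunits, 18 (23.7%) were called lower and 7 (9.21%) higher in THP1, both below the 31.9% and 26.3% of all genes, with a median of -0.10. Of 83 cytosolic ribosomal protein genes, 6 (7.23%) were lower and 9 (10.8%) higher in THP1, with a median of 0.16. In K562, 27 (32.5%) were lower and 2 (2.41%) higher, against 28% and 30.5% of all genes, with a median of -0.48. The summed level of the cytosolic set was 16.5 times that of the members in K562, 20.6 times in HL60, 24.7 times in SUDHL4 and 35.8 times in THP1. That ratio does not depend on the scaling of a library. The differences between these lists were not tested.

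**Figure D4:**
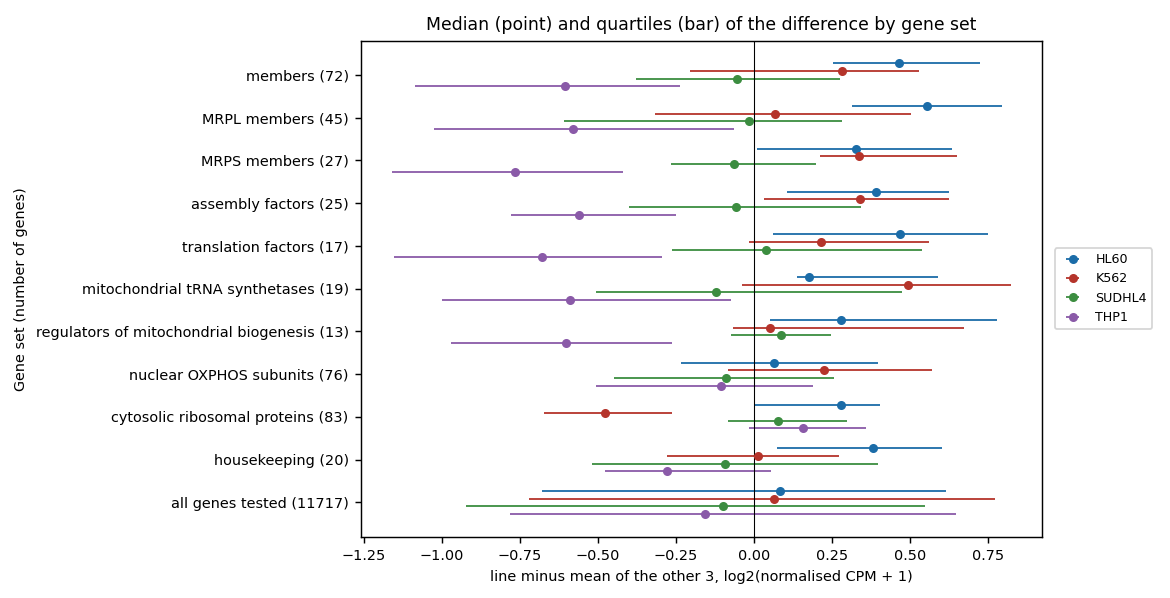
Median (point) and quartiles (bar) of the difference, in log2(normalised CPM + 1), between each pure line and the mean of the other 3 for the members and the gene lists, with the number of tested genes in parentheses. The THP1 medians of the members (-0.61), assembly factors (-0.56), translation factors (-0.68) and tRNA synthetases (-0.59) lie to the left of those of the respiratory chain subunits (-0.10) and of the cytosolic ribosomal proteins (0.16).

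In the mixtures, the members should lie between the lowest and the highest pure line if RNA adds up and the libraries are scaled alike. They did so for 70 of 72 in mixture 1, 71 in mixture 3, 69 in mixture 4, 63 in mixture 5 and 69 in mixture 6, against 97.9%, 97%, 93.9%, 90.3% and 94.1% of all genes. Mixture 2 was apart: 42 members lay within the range and 29 above all 4 pure lines, against 86.1% and 6.64% of all genes. In the other 5 mixtures, 1, 3, 4, 5 and 6, the members above all pure lines numbered 1, 0, 3, 9 and 3, beside 0.811%, 0.35%, 3.41%, 4.06% and 2.65% of all genes. Below all pure lines were 1 member each in mixtures 1, 2 and 3 and 0 in mixtures 4, 5 and 6, beside 1.25%, 7.24%, 2.64%, 2.73%, 5.61% and 3.29% of all genes. With housekeeping scaling, 52 members lay within the range in mixture 2 and 19 above it. The counts above the range in the other 5 mixtures became 2, 1, 4, 15 and 6 with total-read scaling and 6, 0, 5, 11 and 6 with housekeeping scaling. Shares of all genes under either scaling are not given, so these counts have no background and show only how far scaling moves them. The summed level of the members in mixture 2, 7193 normalised CPM, was above that of every pure line, while the other mixtures lay between 4912 in mixture 3 and 5952 in mixture 5.

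Since the labels give no ratios, the share of each line was estimated from 100 signature genes per line by non-negative least squares, and each member's level was predicted from the pure lines with those coefficients. Mixture 2 was estimated at 48.3% HL60 RNA, mixture 4 at 58.3% SUDHL4, mixture 5 at 54.2% and mixture 6 at 53.4% K562. Mixture 1 had between 22.4% and 28.7% of each line. Mixture 3 was estimated at 39.5% K562, 35.2% THP1, 25.3% HL60 and 0% SUDHL4. All the estimates are shares of RNA and not of cells. The labels name all the lines in each mixture, so an estimate of 0% cannot be exact. K562 in mixture 4, at 0.0131%, and HL60 in mixture 5, at 0.190%, were also estimated very low. The predictions carry any error of the estimates.

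Observed levels were above the prediction by 1.5-fold for 13 members in mixture 2 (3.48% of all genes), 7 in mixture 5 (2.68%), 3 in mixture 6 (1.4%), 1 in mixture 1 (0.504%), 1 in mixture 4 (0.99%) and 0 in mixture 3 (0.179%). No tested member was below the prediction by 1.5-fold in any of the 6 mixtures, beside 0.452%, 7.08%, 0.188%, 0.674%, 4.36% and 1.39% of all genes in mixtures 1 to 6. The median of observed minus predicted was 0.35 in mixture 2, 0.23 in mixture 4, 0.18 in mixture 5, 0.10 in mixture 6, 0.09 in mixture 1 and -0.02 in mixture 3, where that of all genes lay between -0.04 and 0.04. In mixture 2 the cytosolic ribosomal proteins had a median of 0.46, with 55 of 83 above all pure lines. The respiratory chain subunits had 0.42, with 33 of 76 above, and the 20 housekeeping genes 0.16, with 4 above. In mixture 4 the respiratory chain subunits had 0.28, with 17 above, and the cytosolic ribosomal proteins 0.24, with 31 above. In mixture 5 these were 0.23, with 28 above, and 0.27, with 9 above. Among all genes, 3.41% lay above all pure lines in mixture 4 and 4.06% in mixture 5.

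MRPL12, MRPL41 and MRPL46 exceeded the prediction most. MRPL12 had 13.3, 25.2, 6.13, 5.19, 16.9 and 8.69 normalised CPM in mixtures 1 to 6, where 8.24, 11.2, 7.79, 6.13, 4.58 and 5.33 were predicted. Mixture 5, estimated at 0.190% HL60, thus held a level of MRPL12 near that of pure HL60, with a log2 difference from the prediction of 1.68. MRPL41, a large subunit protein of mitochondria, had 35.9, 52.6, 28.4, 20.7, 47.6 and 38.6, and 33.6 in HL60, 22.8 in K562, 17.2 in SUDHL4 and 27.4 in THP1.

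MRPL41 exceeded the prediction by 0.91 in mixture 2 and 0.99 in mixture 5, and its levels there lay above all pure lines. MRPL46, which passed the minimum in HL60 alone among the pure lines, had 6.21, 9.09, 5.14, 5.72, 8.71 and 5.35 normalised CPM in the mixtures and 7.56 in HL60, 3.97 in K562, 4.39 in SUDHL4 and 3.90 in THP1. Its excess was largest in mixture 5, at 0.97. The transcript GC content of MRPL12 was 64.6% and that of MRPL41 71.9%, both well above the members' median of 50.5%, whereas MRPL46 had 48.8%.

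The members lowest against the prediction were MRPL49, MRPS18B and MRPL19, the last the counterpart of a bacterial large subunit protein. Their mean differences over the 6 mixtures were -0.08, -0.05 and -0.04. MRPL49 had 78.9, 102, 82.8, 54.5, 93.005 and 84.7 normalised CPM in mixtures 1 to 6 beside 124 in HL60, 131 in K562, 49.4 in SUDHL4 and 53.1 in THP1. For these 3 the pure lines predicted the mixtures within 0.20 on the log2 scale.

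The difference from the prediction went with GC content in every mixture. Spearman's rho over the 72 members was 0.52 in mixture 1, 0.61 in mixture 2, 0.68 in mixture 5 and 0.61 in mixture 6, and -0.45 in mixture 3 and -0.56 in mixture 4. Over 11561 genes it was 0.42, 0.36, 0.45 and 0.31, and -0.41 and -0.40. The sign in each mixture was thus that of all genes. Transcript length went with the difference as well. Its rho over 11561 genes was -0.24, -0.41, 0.22, -0.22, -0.35 and -0.27 in mixtures 1 to 6. Over the 72 members it was -0.20, -0.31, 0.08, -0.08, -0.18 and -0.08. No correction for length was made, and the part of length was not tested. With the median of genes of the same GC content subtracted, the members above the prediction by 1.5-fold numbered 7 in mixture 2, 4 in mixture 5 and 0 in the other 4. The members' median less that of all genes was 0.10, 0.36, -0.03, 0.19, 0.22 and 0.11 in mixtures 1 to 6 before this subtraction. After it the members' median was 0.10, 0.38, -0.06, 0.18, 0.24 and 0.14. Fewer members were thus called, while the medians stayed close to their earlier values. The labels give no kit per library, so the mixtures could not be compared within a kit.

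**Figure D5:**
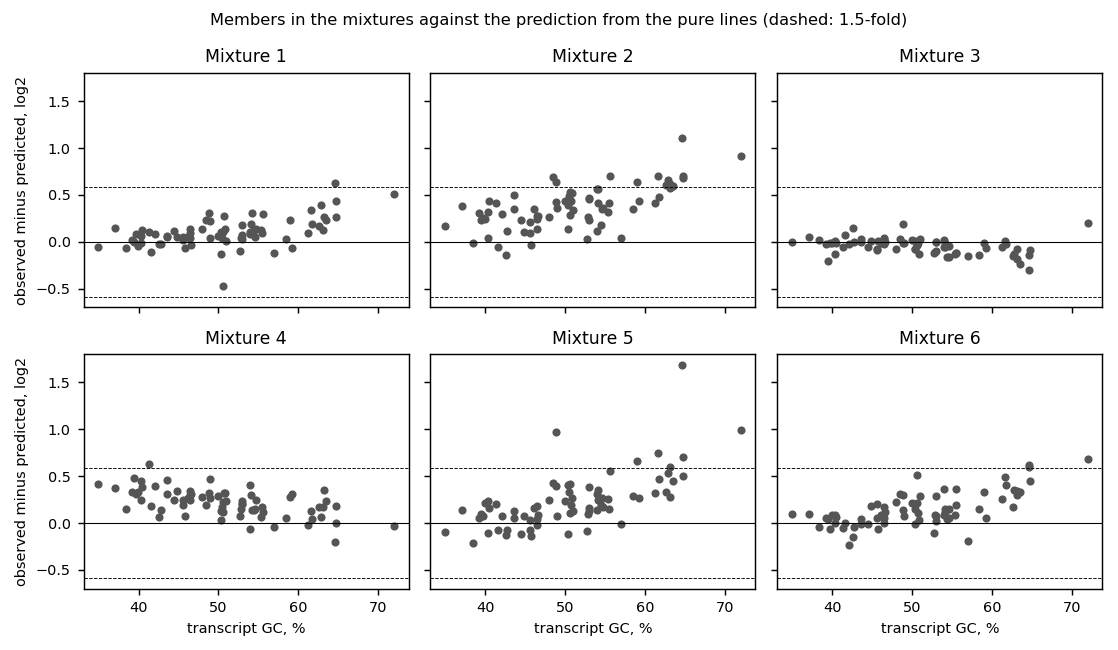
Observed minus predicted log2(normalised CPM + 1) of the 72 tested members in each mixture (vertical axis) against transcript GC content in percent (horizontal axis), with dashed lines at 1.5-fold. The points rise with GC in mixtures 1, 2, 5 and 6 and fall in mixtures 3 and 4, and the point at the top of mixture 5 is MRPL12 at 1.68.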

How the data were processed

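Per the submitters' processing notes, the tools were featureCounts, HISAT2 and Cell Ranger ARC 2.0.0, on build hg19. Annotation, settings and the rescaling of library sizes are not given in the sources used here. Deposited by the authors was a single table of signal, here called normalised CPM. Each value above 0 equals (reads + 0.5) times a constant of its column, within 0.01 for 100% of values, so reads were recovered for Poisson intervals; no count model was run. The design had assumed plain CPM, and its rules were applied unchanged. Lengths, GC, overlaps and neighbours came from GENCODE 29 (GRCh38) by Ensembl ID, so these positions are not those of hg19. Differences, ranges, non-negative least squares and correlations were computed with Python 3.11.15, numpy 2.4.6, pandas 2.3.3 and scipy 1.17.1, with a pseudocount of 1, and tested on simulated data. The text names, by rule, members with the 3 largest differences of each sign per line, the 5 extremes of level per kilobase and of range, the 3 farthest from the prediction on either side, the MRPS18 paralogues, members never at 5, and up to 3 genes per list and line; OXA1L, DAP3 and AURKAIP1 are named as list members. Genes named in the opening of the report as background, and MRPS11 below, fall outside that rule. Members and lists were chosen with earlier results of these data known. Mitochondrially encoded genes were not analysed here.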

Additional observations from a re-analysis of the deposited data

How the results depend on the processing

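The text gives single libraries, so differences between lines carry no replicate error; intervals cover counting alone. The alternatives were total-read and housekeeping scaling, a pseudocount of 0.1, no minimum level, calls at 2-fold, 50 signature genes and medians in place of sums; a GC-bin correction and leaving out the 7 overlapping members were chosen after seeing the data. No paired analysis was possible because each group holds 1 library. The pseudocount and the number of signature genes moved no group count they bear on by 1.5 times. With no minimum level the members highest in THP1 went from 3 to 5, and without the overlapping members from 3 to 2, as did the members lower in HL60. Total-read scaling gave HL60 a median of 0.30 with 18 members higher, and THP1 2 higher. Housekeeping scaling gave HL60 a median of 0.095 with 11 higher and 6 lower, SUDHL4 10 higher, THP1 a median of -0.32 with 5 higher and 24 lower, and turned the median of all genes in THP1 to 0.12. It also moved the members highest in HL60 from 33 to 22, below the 25 highest in K562, and those lowest in THP1 from 46 to 34. Total-read scaling gave 28 highest in HL60 and 29 in K562. Calls at 2-fold were 9 higher and 0 lower in HL60, 7 and 3 in K562, 3 lower in SUDHL4, and 0 higher and 22 lower in THP1. The GC-bin correction gave medians of 0.35 in HL60, 0.13 in K562, 0.046 in SUDHL4 and -0.44 in THP1. As it subtracts other genes, the comparable uncorrected value is the members' median less that of all genes. That value was 0.38 in HL60, 0.22 in K562, 0.046 in SUDHL4 and -0.45 in THP1. With the GC-bin correction, 19 members were higher in HL60, 10 higher and 7 lower in SUDHL4 and 3 higher in THP1. Counts with the all-gene median alone subtracted are not given, so how far GC content moved these counts cannot be told. Members above the prediction then numbered 0, 7, 0, 4 and 0 in mixtures 1, 2, 4, 5 and 6, while their median stayed at 0.38 in mixture 2 and 0.24 in mixture 5. Shares of all genes called are given for the deposited scaling alone, so counts under the alternatives have no background beside them. The large to small ratio by medians of levels was 0.888 in HL60, 0.821 in K562, 0.852 in SUDHL4 and 1.23 in THP1, and 0.935, 0.896, 0.881, 0.925, 0.936 and 0.958 in mixtures 1 to 6. The cause of these differences was not tested. The correction for GC subtracts other genes of like composition and is not a test of a cause. Depth limits MRPL38, MRPL53 and MRPS24, which had at most 13 reads in a library.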

Other observations

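MRPL46 and MRPS11 start close to each other on opposite strands of chromosome 15, at chr15:88459476-88467419 and chr15:88467453-88480773 in GRCh38, a pair chosen after its values were seen. MRPS11, the counterpart of a bacterial small subunit protein, had a normalised CPM of 47.6 in HL60, 30.96 in K562, 30.2 in SUDHL4 and 25.7 in THP1, and MRPL46 had 7.56 in HL60, 3.97 in K562, 4.39 in SUDHL4 and 3.90 in THP1. Their differences in HL60 were 0.70 and 0.75, and HL60 was the highest and THP1 the lowest line for both. Per kilobase, MRPS11 averaged 15.2 and MRPL46 4.90 over the pure lines.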
